A study of Mus musculus with 6 samples.

Results

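Gpd1, Gpd2, Pck1, Gpam, Agpat2, Agpat3, Lpin1, Lpin2, Dgat1 and Dgat2 encode enzymes that supply glycerol-3-phosphate or build triglyceride from it. They were picked by gene symbol and make up 10 of the 23282 rows of the count tables, and all 10 were tested. RNA came from bulk brown adipose tissue (BAT) of male mice aged 5 weeks on a C57BL/6N background, with 3 wild-type and 3 Letmd1 KO mice. The KO mice were homozygous for a knockout-first allele, in which a lacZ and neomycin cassette sits in an intron of Letmd1, a gene for a mitochondrial matrix protein. The allele acts in every tissue and came from a single embryonic stem cell clone. Labels number the mice 1 to 3 in each group.

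Adipocytes store fatty acids as triglyceride on a glycerol-3-phosphate backbone. The backbone is made from dihydroxyacetone phosphate by the cytosolic dehydrogenase GPD1, or from glycerol by glycerol kinase. Glyceroneogenesis, through PCK1, makes dihydroxyacetone phosphate for the GPD1 step from lactate and amino acids. GPD2, on the inner mitochondrial membrane, oxidizes glycerol-3-phosphate back and passes the electrons to the respiratory chain, so GPD1 and GPD2 form a shuttle that is known to be very active in brown fat. Acyl chains are then added by glycerol-3-phosphate acyltransferases (GPAM and its relatives) and by AGPATs, lipins remove the phosphate, and DGAT1 or DGAT2 adds the last acyl chain. BAT both stores and burns these lipids.

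The promoter is the DNA just before a transcription start. Promoter windows from RefSeq (mouse build GRCm38.p6) matched 7 of the 10 genes, with 11 windows. Motifs matched in windows of Pck1, Gpam, Lpin1 and Lpin2, and these are printed, with the first window where a gene has several. They cover the cytosolic PEPCK gene, 2 lipin genes, of which 1 passed the test below, and an acyltransferase. Each line gives the 250 bases before a start, 5′ to 3′ on the gene's strand, in lower case with a matched motif in capitals.
Pck1: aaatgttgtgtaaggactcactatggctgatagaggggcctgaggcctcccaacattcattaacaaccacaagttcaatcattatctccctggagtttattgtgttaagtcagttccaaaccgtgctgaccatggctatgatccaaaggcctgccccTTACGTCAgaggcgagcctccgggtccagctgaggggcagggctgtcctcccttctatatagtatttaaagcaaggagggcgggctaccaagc
Gpam: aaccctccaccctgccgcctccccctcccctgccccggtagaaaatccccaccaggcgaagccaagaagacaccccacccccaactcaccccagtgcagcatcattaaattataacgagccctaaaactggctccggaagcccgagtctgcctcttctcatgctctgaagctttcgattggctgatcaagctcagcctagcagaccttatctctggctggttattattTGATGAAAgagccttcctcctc
Lpin1: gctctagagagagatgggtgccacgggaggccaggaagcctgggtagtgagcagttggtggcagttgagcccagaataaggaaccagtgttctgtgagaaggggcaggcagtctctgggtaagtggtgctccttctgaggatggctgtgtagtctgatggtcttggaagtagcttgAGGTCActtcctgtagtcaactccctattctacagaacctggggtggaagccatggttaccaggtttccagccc
Lpin2: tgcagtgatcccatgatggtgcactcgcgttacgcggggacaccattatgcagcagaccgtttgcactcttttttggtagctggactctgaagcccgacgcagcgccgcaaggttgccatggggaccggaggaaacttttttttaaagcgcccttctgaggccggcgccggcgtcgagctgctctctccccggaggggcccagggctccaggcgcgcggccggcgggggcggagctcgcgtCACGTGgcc
The Pck1 window is chr2:173152823-173153072 on the plus strand. Its capitals mark TTACGTCA, a form of the cyclic AMP response element, 93 bases before the start. That motif was added to the search after the windows had been seen, and 0.499% of the 32851 windows hold it on either strand. Shares of windows count a match at any position, and the windows searched also held the 50 bases after the start. The Gpam window, chr19:55127239-55127488 on the minus strand, holds TGATGAAA 22 bases before the start. This is a match to TGATGNAA, the core of the element bound by ATF4 with C/EBP factors, which 3.97% of all windows hold. The Lpin1 window, chr12:16610967-16611216 on the minus strand, has the nuclear receptor half-site AGGTCA 74 bases before the start. This half-site lies in 16.3% of all windows. The first of the 3 Lpin2 windows, chr17:71183282-71183531 on the plus strand, has the E-box CACGTG 9 bases before the start, found in 7.15% of windows. Among windows not printed, the second of Gpam holds AGGTCA 196 bases before its start, and the third of Lpin2 holds the ATF4 core as TGATGGAA 194 bases before its start. The ATF4 core thus lies in windows of Gpam, which was lower, and of Lpin2, which did not pass the test. TGACGTCA and TCACNCCAC, the usual cyclic AMP response element and a sterol regulatory element, were searched on both strands too and lay in 0 of the 11 windows. None of these motifs overlaps another in the windows printed. A match describes letters and not a site in use.

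The libraries held 6669577 to 14574273 counts, and a count of 3, the floor below which no level is read, was worth 0.176 to 0.397 CPM (counts of a gene per 1000000 scaled counts of its library). Levels below are CPM scaled by TMM, which sets libraries by the bulk of their genes. Letmd1 counts were 5658, 6490 and 5266 in wild-type BAT, and 0, 0 and 1 in Letmd1 KO BAT. A gene was called when its edgeR adjusted p was under 0.05. In Letmd1 KO BAT 2905 (22.4%) of the 12995 genes tested were lower and 3083 (23.7%) higher, with a median log2 fold change of 0.03. Nothing in the labels says that mice share a litter or a day.

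Of the 10 genes, 9 were lower in Letmd1 KO BAT, against 22.4% of all genes tested, and 0 were higher, against 23.7% (0 at an unadjusted p under 0.05 and 0 by DESeq2). Lpin2 did not pass the test. The median log2 fold change of the 10 was -1.68. On the TMM-scaled levels the same 9 genes had every KO mouse below every wild-type mouse, which was so for 27.2% of all genes tested. For Pck1 and Lpin1 this rests on TMM, as counts over library totals alone overlap between groups. Wild-type mouse 3 had 23046 Pck1 counts of 9012707, and KO mouse 1 had 20810 of 7805641. Wild-type mouse 1 had 5923 Lpin1 counts of 10849968, and KO mouse 3 had 8914 of 14574273. Together the 10 genes took 1.69% to 1.77% of all counts in wild-type BAT and 0.597% to 0.675% in Letmd1 KO BAT. Gpd1, Gpd2, Gpam, Agpat2 and Dgat2 were lower and past the threshold under each of 15 other ways of processing, whereas Pck1, Lpin1, Agpat3 and Dgat1 depended on how libraries were scaled.

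**Figure D1:**
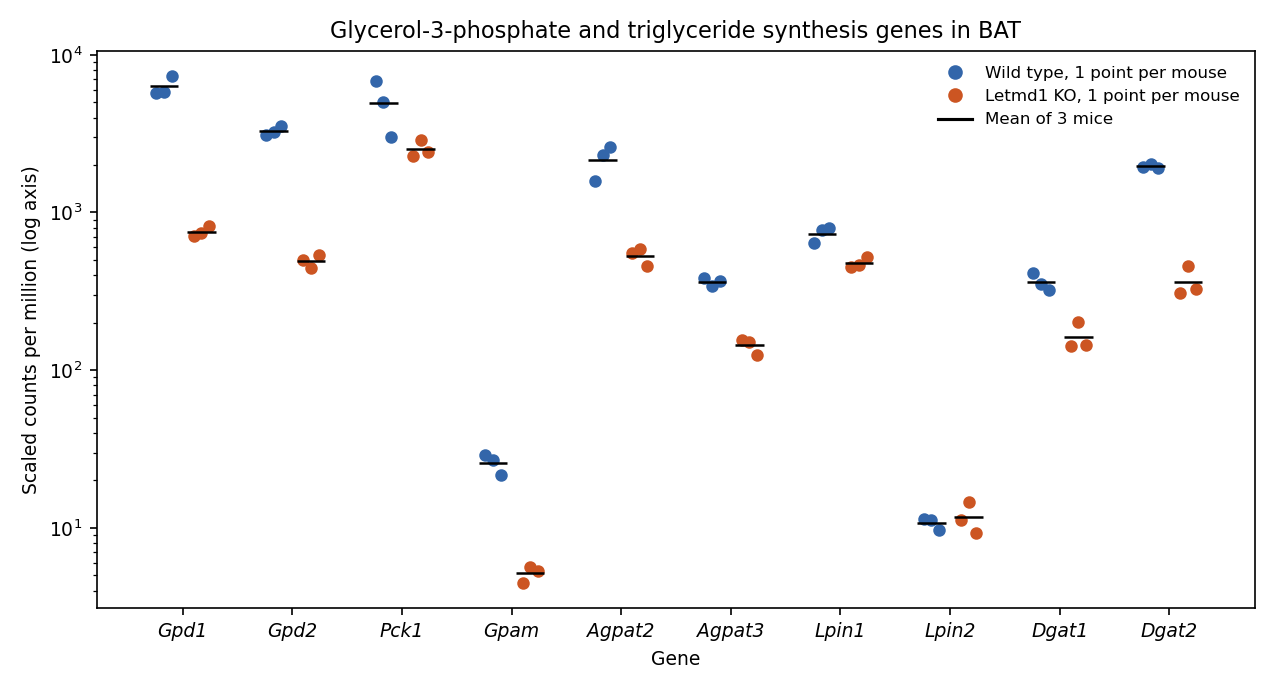
Level of each of the 10 genes in TMM-scaled counts (CPM) on a log axis, with 1 point per mouse (wild type in blue, Letmd1 KO in orange) and a line at the mean of 3 mice. The orange points lie below all blue points of the same gene except for Lpin2, where they overlap, and for Pck1 the gap is narrow.

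The glycerol-3-phosphate dehydrogenase genes Gpd1 and Gpd2 had the largest falls among the 10 genes under TMM scaling. Gpd1 (chr15:99717515-99725005, plus strand), the cytosolic enzyme that makes glycerol-3-phosphate, stood at 5731, 5819 and 7325 CPM in the wild-type mice and at 708, 743 and 815 CPM in the KO mice. The groups were far apart and the KO mice close together. Its log2 fold change was -3.06 ± 0.15 (SE, n = 3 per group, adjusted p = 3.1e-07), an 8.33-fold fall to 12.0% of the wild-type mean. Among all genes tested, 69 had a more negative fold change. By mean level Gpd1 was gene number 12 in wild-type BAT and number 119 in Letmd1 KO BAT.

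Gpd2 (chr2:57237635-57370719, plus strand), the mitochondrial partner in the shuttle, moved with it. It had 3089.8, 3237 and 3516 CPM in wild-type BAT and 500.2, 447 and 539 CPM in Letmd1 KO BAT. Every KO mouse was again far below every wild-type mouse. This was a log2 fold change of -2.73 ± 0.13 (SE, adjusted p = 2.6e-07), so that 15.1% of the wild-type level was left. The fall was slightly larger for Gpd1 than for Gpd2 within the same libraries. The ratio of Gpd1 to Gpd2 counts was 1.85, 1.80 and 2.08 in wild-type mice and 1.42, 1.66 and 1.51 in KO mice, without overlap. Such a ratio does not depend on library scaling, and it is given as a description. The sum of both genes fell from 9573 ± 1105 to 1251 ± 89.8 CPM (SD, n = 3), which is 13.1% of wild type.

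Pck1 (chr2:173153048-173159273, plus strand) encodes the cytosolic PEPCK of glyceroneogenesis. Its levels were 6804, 5052 and 3001 CPM in wild-type BAT and 2284, 2881 and 2429 CPM in Letmd1 KO BAT. The wild-type mice differed 2.27-fold among themselves, and under TMM scaling wild-type mouse 3 lay just above the highest KO mouse. On average the log2 fold change was -0.97 ± 0.27 (SE, adjusted p = 0.0206), or 51.1% of the wild-type mean. This call was lost without any one of the KO mice, with adjusted p = 0.0693 without mouse 1, 0.0541 without mouse 2 and 0.0953 without mouse 3. With library size alone it was -0.55 (adjusted p = 0.111). Its sign turned under quantile normalization (log2 fold change 0.07) and after scaling to adipocyte markers (0.18), without passing the test in either. Pck1 was gene number 17 by mean level in both groups.

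Gpam (chr19:55067268-55127238, minus strand) encodes the mitochondrial glycerol-3-phosphate acyltransferase, which attaches the first acyl chain. It was a low gene in these libraries, at 29.0, 27.0 and 21.6 CPM in wild-type mice and 4.50, 5.68 and 5.29 CPM in KO mice. The groups did not overlap, although the KO values rest on only 41, 43 and 90 counts. The log2 fold change was -2.33 ± 0.19 (SE, adjusted p = 6.7e-06), which leaves 19.9% of wild type.

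The next acyl chain is added by AGPATs. Agpat2 (chr2:26593057-26604417, minus strand), the form whose loss is known to cause lipodystrophy, had 1583, 2315 and 2592 CPM in wild-type BAT and 554, 586 and 457 CPM in Letmd1 KO BAT. Wild-type mouse 1 was the lowest of its group and still well above the KO mice. Its log2 fold change was -2.02 ± 0.19 (SE, adjusted p = 1.7e-05). Agpat3 (chr10:78269178-78352489, minus strand), a related acyltransferase, had 382, 342 and 368 CPM against 155, 150.3 and 125 CPM. These groups were apart as well, with a smaller log2 fold change of -1.35 ± 0.12 (SE, adjusted p = 9.0e-06). Scaled to adipocyte markers, the Agpat3 change was -0.21 and no longer passed the test (adjusted p = 0.417). Agpat2 remained lower there at -0.91 (adjusted p = 0.00074).

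Lipins turn phosphatidic acid into diacylglycerol, and of Lpin1 and Lpin2 only Lpin1 passed the test. Lpin3, outside the 10 genes, is given with the other isoenzymes. Lpin1 (chr12:16535669-16610966, minus strand), the main adipose lipin, had 638, 772 and 793 CPM in wild-type mice and 452, 465 and 524 CPM in KO mice. The groups did not overlap under TMM scaling. The log2 fold change of -0.61 ± 0.13 (SE, adjusted p = 0.0024) was the smallest fall among the called genes. It shrank to -0.19 with library size alone (adjusted p = 0.222) and to -0.14 under quantile normalization (adjusted p = 0.366), and turned to 0.53 after scaling to adipocyte markers (adjusted p = 0.0431).

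Lpin2 (chr17:71182560-71249817, plus strand) was expressed at a low level. It had 11.3, 11.2 and 9.64 CPM in wild-type BAT and 11.2, 14.7 and 9.22 CPM in Letmd1 KO BAT, and the groups overlapped. The log2 fold change was 0.11 ± 0.22 (SE, adjusted p = 0.712), with a 95% confidence interval of -0.38 to 0.60. The values, at 74 to 157 counts per mouse, are compatible with a rise or a fall within that interval. After scaling to adipocyte markers Lpin2 was higher, at 1.23 (adjusted p = 0.00016).

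DGAT1 and DGAT2 are unrelated enzymes that both make triglyceride from diacylglycerol. Dgat2 (chr7:99153658-99182719, minus strand) had nearly even levels of 1941, 2015 and 1922 CPM in wild-type mice and 307, 455 and 325 CPM in KO mice. The gap between groups was many times the spread within them. The log2 fold change was -2.44 ± 0.16 (SE, adjusted p = 1.8e-06), or 18.5% of wild type. Dgat1 (chr15:76502015-76511953, minus strand) fell less, from 413, 350.4 and 323 CPM to 142, 202 and 145 CPM. The groups did not overlap, and the log2 fold change was -1.15 ± 0.16 (SE, adjusted p = 0.00019). Scaled to adipocyte markers, Dgat1 did not pass the test (-0.033, adjusted p = 0.90), and Dgat2 was still lower (-1.33, adjusted p = 9.3e-07).

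Ordered by fold change, the 10 genes ran from Gpd1 through Gpd2, Dgat2, Gpam, Agpat2, Agpat3, Dgat1, Pck1 and Lpin1 to Lpin2. The 95% confidence intervals of all neighbours in this order overlapped, and differences between neighbours were not tested. The within-library ratios of Gpd1 to Gpd2 above and of Agpat2 to Agpat3 below separated the groups. For Agpat2 (-2.44 to -1.60) and Agpat3 (-1.61 to -1.09) they met only at their ends, as for Lpin1 and Lpin2. The interval of Gpd1, -3.40 to -2.72, and that of Lpin1, -0.89 to -0.34, were far apart.

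**Figure D2:**
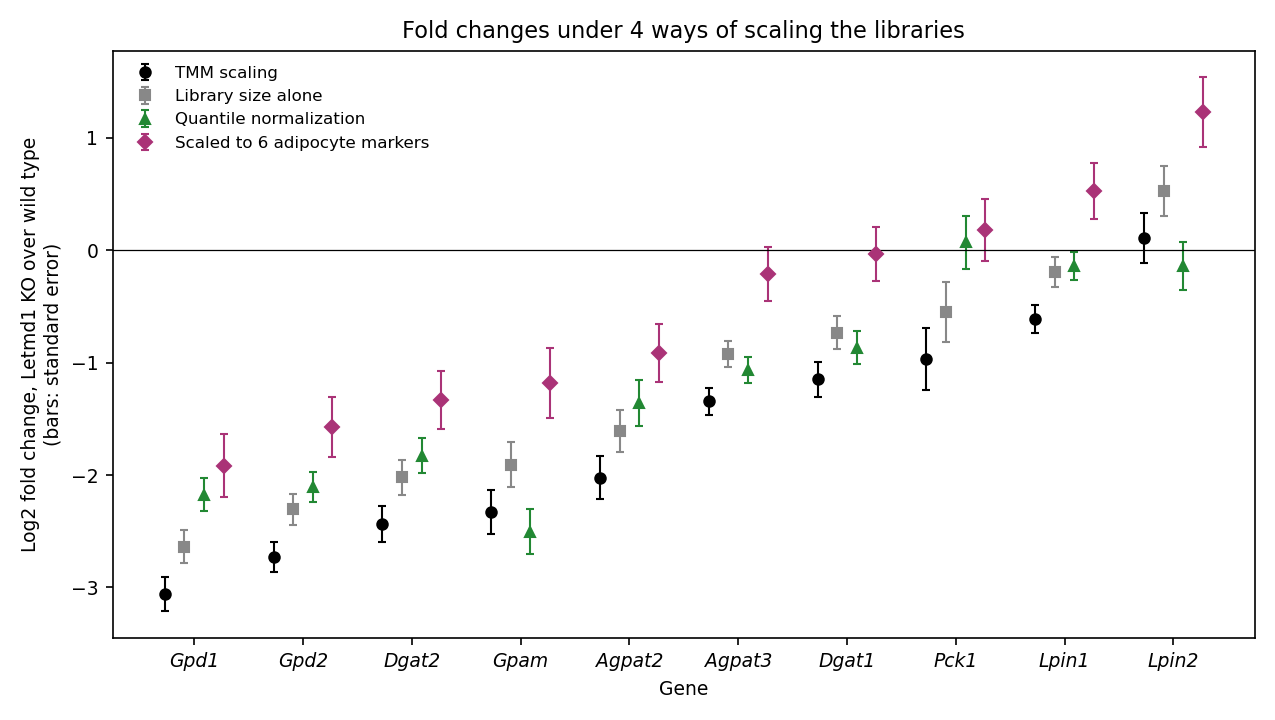
Log2 fold change of Letmd1 KO over wild type with its standard error for each of the 10 genes under 4 ways of scaling the libraries (TMM, library size alone, quantile normalization, and scaling to 6 adipocyte markers). Gpd1, Gpd2, Dgat2, Gpam and Agpat2 lie below 0 under all 4, whereas Pck1 and Lpin1 cross 0 under adipocyte scaling and Pck1 also under quantile normalization.

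The make-up of single steps also shifted. Dgat2 gave 82.5%, 85.2% and 85.6% of the DGAT counts in wild-type mice and 68.3%, 69.2% and 69.1% in KO mice. These shares did not overlap, and the ratio of Dgat2 to Dgat1 counts went from 4.70, 5.75 and 5.95 to 2.16, 2.25 and 2.24. On the log2 scale the ratio was lower by a mean of -1.30 in Letmd1 KO BAT. The ratio of Agpat2 to Agpat3 was 4.14, 6.78 and 7.04 in wild-type mice and 3.59, 3.90 and 3.65 in KO mice, also without overlap. The ratio of Lpin1 to Lpin2 was 56.4, 68.8 and 82.3 against 40.4, 31.7 and 56.8, and here the groups overlapped slightly. Shares are of 3′ tag counts, and the gene annotation used for counting is not given, so they compare groups and not the enzymes themselves.

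Adding the isoenzymes outside the 10 genes, the GPAT step as a whole fell from 939 ± 346 to 236 ± 22.8 CPM (SD, n = 3), 25.1% of wild type. Gpat4 (Agpat6 in the files), an acyltransferase of the endoplasmic reticulum, held 95.5% to 96.4% of its counts in wild-type mice and 68.2% to 73.3% in KO mice. Gpat3 (Agpat9 in the files), its close relative, moved the other way, from 0.702%, 0.79% and 1.65% of the step to 24.5%, 28.6% and 29.4%. Gpam made up 2.29% to 3.76% in wild-type and 2.02% to 2.38% in Letmd1 KO BAT. The AGPAT step fell to 28.4%, the lipin step to 67.0% and the DGAT step to 22.6% of wild type. Under TMM scaling the lipin step therefore lost the least, and Lpin1 held more than 95% of its counts in every mouse. The fall of Lpin1 depended on the scaling, as given above, so the loss of this step does too.

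**Figure D3:**
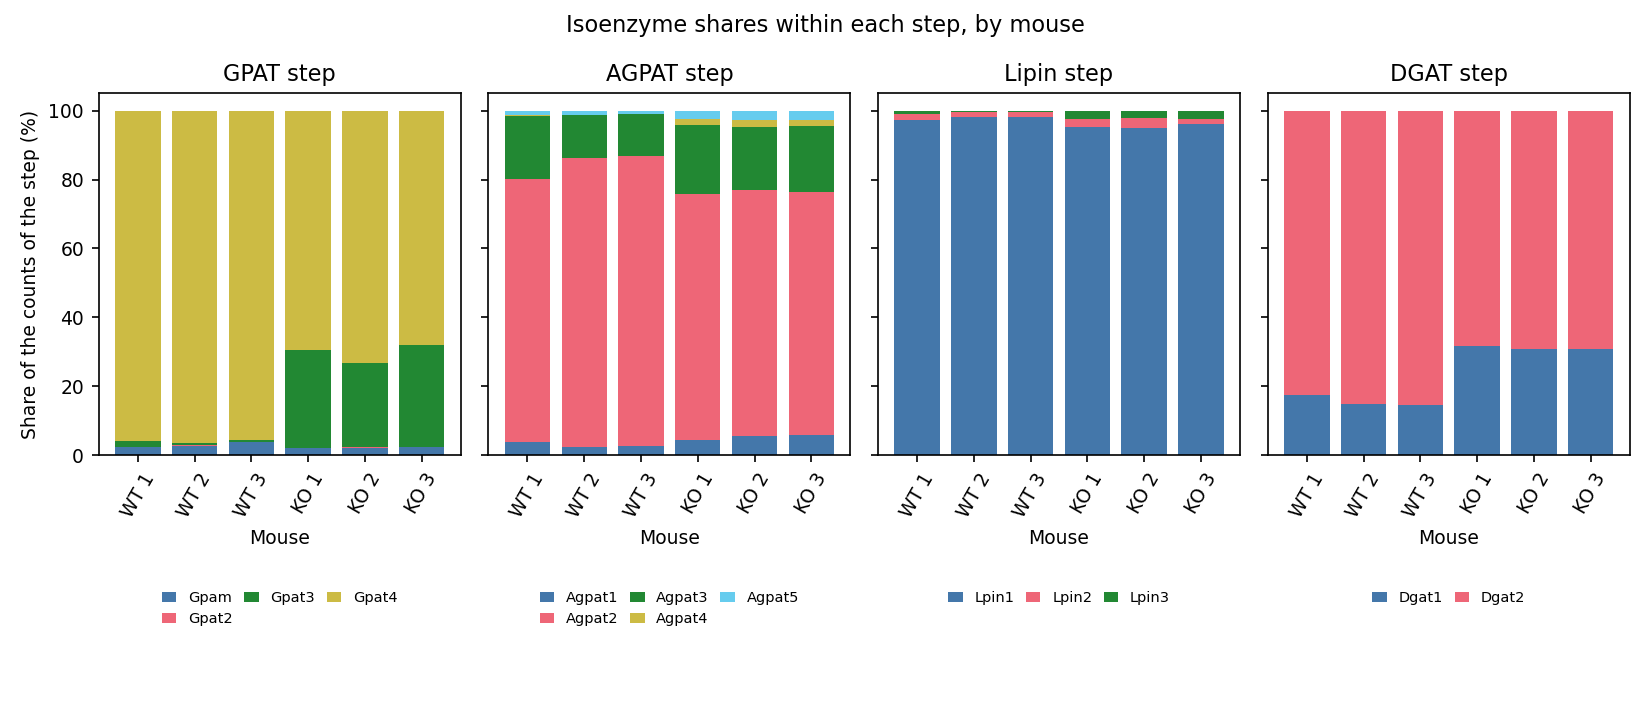
Share of each isoenzyme in the summed counts of its step, in percent, as stacked bars for each of the 3 wild-type and 3 KO mice. Gpat3 goes from at most 1.65% to at least 24.5% of the GPAT step, and Dgat1 from at most 17.5% to at least 30.8% of the DGAT step.

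Of 12 other genes around glycerol-3-phosphate 9 were tested, with 4 lower, 2 higher and 3 not called, and a median log2 fold change of -0.45. Over all genes tested 22.4% were lower and 23.7% higher, so the count of higher genes is at the background. Pgp, the phosphatase that hydrolyses glycerol-3-phosphate, went from 89.6, 103 and 109 CPM to 40.0, 37.7 and 37.5 CPM (-1.39 ± 0.12, adjusted p = 7.0e-06), a call lost after adipocyte scaling (-0.25, adjusted p = 0.327). Gyk, glycerol kinase, had 309.9, 204 and 121 CPM against 106, 62.5 and 81.3 CPM. Its log2 fold change was -1.34 ± 0.39 (SE, adjusted p = 0.0379), a call lost without wild-type mouse 2, KO mouse 2 or KO mouse 3 (adjusted p = 0.0808, 0.127 and 0.0928). It was also lost with library size alone (0.101), quantile normalization (0.0647), no filter on low counts (0.0863), the muscle covariate (0.178) and adipocyte scaling (-0.13, adjusted p = 0.61), so it held in 7 of 15 alternatives. Mdh1, the cytosolic malate dehydrogenase of the other NADH shuttle, fell with -1.24 ± 0.11 (adjusted p = 1.1e-05), again not after adipocyte scaling (-0.098, adjusted p = 0.719). Its partner Got1, the cytosolic aspartate aminotransferase, rose from 24.0, 29.6 and 29.2 CPM to 166, 109 and 194 CPM (2.50 ± 0.21, adjusted p = 2.6e-05). Pck2, the mitochondrial PEPCK, rose as well, from 17.2, 10.4 and 10.2 CPM to 92.5, 60.7 and 84.4 CPM (2.65 ± 0.24, adjusted p = 3.5e-05). So the cytosolic and the mitochondrial PEPCK genes moved in opposite directions under TMM scaling, with Pck1 changing sign as given above. Aqp7, a glycerol channel of adipocytes named here after its values were seen, had a log2 fold change of 0.00 ± 0.13 (SE, adjusted p = 0.99).

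Of 16 further genes around the synthesis steps 14 were tested, with 4 lower, 3 higher and 7 not called. Not all are isoenzymes of these steps, as Ctdnep1, Cnep1r1, Ppap2a, Ppap2b, Ppap2c, Mogat1 and Mogat2 are included. Ctdnep1 was among the lower genes (-0.32 ± 0.12, adjusted p = 0.046). The counts and median therefore do not describe the isoenzymes alone. These counts are near the shares over all genes tested (22.4% lower, 23.7% higher), and their median log2 fold change of 0.06 was close to that of all genes. Gpat4 (Agpat6) fell from 1214, 944 and 549.6 CPM to 154, 192 and 152 CPM (-2.44 ± 0.29, adjusted p = 0.00047). Agpat1 and Agpat5, further AGPATs, were lower by -0.89 ± 0.14 (adjusted p = 0.00057) and -0.52 ± 0.16 (adjusted p = 0.0214), but their signs turned when scaled to adipocyte markers, to 0.24 (adjusted p = 0.368) and 0.60 (adjusted p = 0.0318). The Agpat5 call was also lost without wild-type mouse 2, KO mouse 1 or KO mouse 3 (adjusted p = 0.0693, 0.0644 and 0.0956), with library size alone (-0.10, adjusted p = 0.605) and with the muscle covariate (adjusted p = 0.107). Gpat3 (Agpat9) rose from 20.9, 7.73 and 4.04 CPM to 63.7, 64.2 and 65.5 CPM. Its log2 fold change of 2.55 ± 0.57 (SE, adjusted p = 0.0164) missed the threshold without wild-type mouse 2 (adjusted p = 0.0571), without KO mouse 2 (adjusted p = 0.0533) and with the muscle covariate (3.08, adjusted p = 0.0732). Agpat4 and Lpin3 rose by 1.4 ± 0.26 and 1.25 ± 0.26 on the log2 scale (SE, adjusted p = 0.0014 and 0.0028) from low levels of 3.65 to 6.46 and 3.60 to 6.14 CPM.

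The phospholipid branch uses the same phosphatidic acid and diacylglycerol. Of its 18 genes 16 were tested, with 10 lower (22.4% of all genes tested were), 1 higher (23.7%) and 5 not called, and a median log2 fold change of -0.39. Chpt1, the cholinephosphotransferase that takes diacylglycerol to phosphatidylcholine, had 1272, 1365 and 1456 CPM in wild-type mice and 243, 486 and 252 CPM in KO mice (-2.06 ± 0.27, adjusted p = 0.00068). Pcyt2, which makes CDP-ethanolamine, fell by 1.81 on the log2 scale (SE 0.16, adjusted p = 1e-05). Ptdss2, a phosphatidylserine synthase, fell by 1.19 (SE 0.16, adjusted p = 0.0002), a call lost after adipocyte scaling (-0.016, adjusted p = 0.956). The gene that rose, Chka, is choline kinase alpha, with 11.6, 12.1 and 3.52 CPM against 69.7, 51.6 and 85.9 CPM (2.91 ± 0.45, adjusted p = 0.0031).

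**Figure D4:**
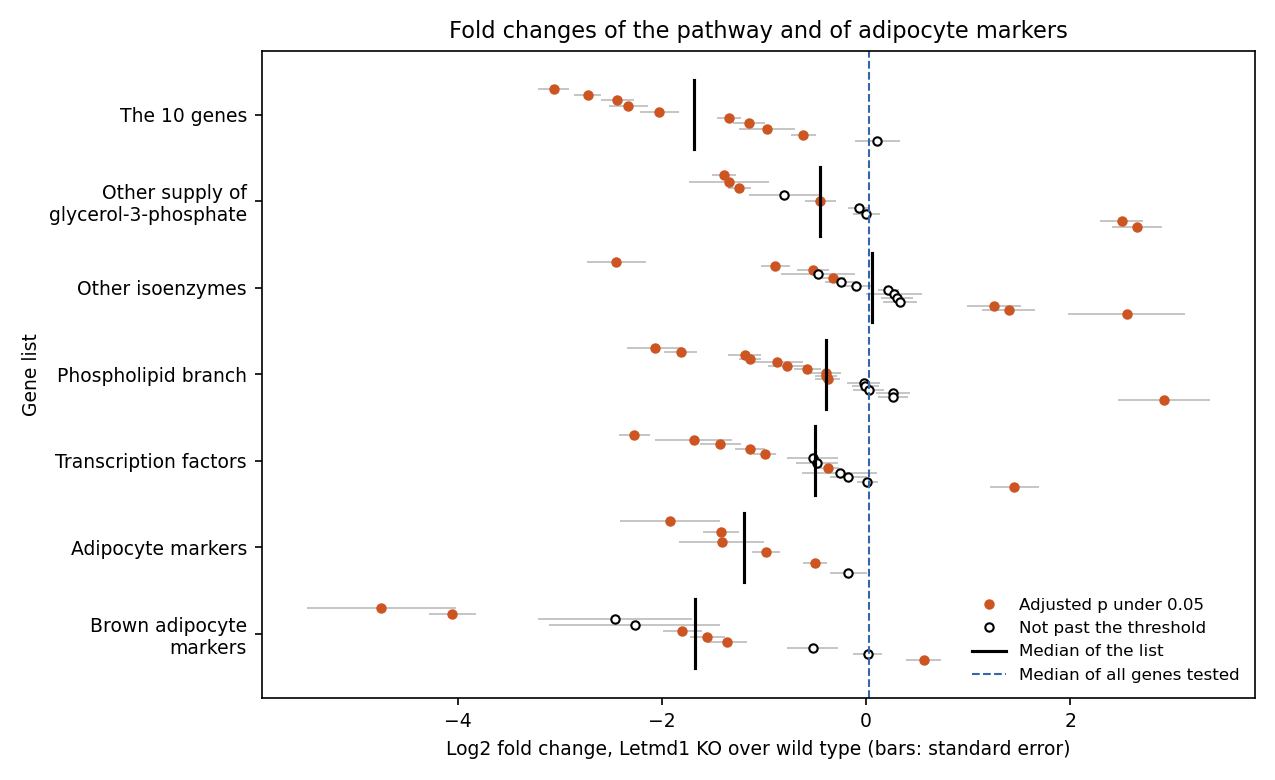
Log2 fold change of Letmd1 KO over wild type with its standard error for every tested gene of 7 lists, 1 point per gene, filled where the adjusted p was under 0.05. A black line marks each list's median and the dashed line that of all genes tested. The 10 genes (median -1.68) sit near the medians of the brown adipocyte (-1.68) and adipocyte markers (-1.20). The list labelled other isoenzymes (0.06) sits near that of all genes, but it also holds genes that are not isoenzymes of these steps.

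Markers of other cell types moved in the same comparison. For the counts below, the shares over all genes tested are 22.4% lower and 23.7% higher. In bulk tissue, fewer adipocytes and less RNA per adipocyte cannot be told apart. Of 6 adipocyte markers 5 were lower, with a median log2 fold change of -1.20, and their summed level was 31981 to 36447 CPM in wild-type and 11499 to 16773 CPM in Letmd1 KO BAT. Most of this sum was Fabp4, with a mean of 27987 CPM in wild-type and 10449 CPM in Letmd1 KO BAT. Of 10 brown adipocyte markers 5 were lower and 1 higher, with sums of 11996 to 13084 against 1781 to 2896 CPM. DESeq2 called 9 of these 10, of which 1 was higher. Dio2 (-2.46, adjusted p = 0.0559) and Adrb3 (-2.27, adjusted p = 0.092) did not pass the edgeR test. All 13 macrophage markers were higher (204 to 282 against 1523 to 2692 CPM), as were 9 of 10 fibroblast and progenitor markers (2261 to 2946 against 6082 to 10381 CPM). No listed marker was at 0 in all 6 mice. Endothelial markers were split, with 3 of 8 lower and 1 higher, and 0 of 7 erythroid markers passed the edgeR test (1 at an unadjusted p under 0.05 and 0 by DESeq2). Of 14 skeletal muscle markers tested, 0 passed it (0 at an unadjusted p under 0.05 and 0 by DESeq2). Their sum was 84.2, 508 and 96.9 CPM in wild-type and 465, 361 and 1322 CPM in KO mice, and several of them (Ckm, Myh2, Myh4, Myh7, Tnnt3, Pvalb and Tcap) were at 0 in wild-type mice 1 and 3. With the muscle level as a covariate 8 of the 10 genes stayed lower. Pck1 had nearly the same log2 fold change, -0.95, with a larger standard error of 0.39, and did not pass the test (adjusted p = 0.114). The part of macrophage and fibroblast RNA in the changes was not tested. After scaling to the adipocyte markers 5 of the 10 genes were lower past the threshold, with log2 fold changes of -1.92 for Gpd1, -1.57 for Gpd2, -1.33 for Dgat2, -1.18 for Gpam and -0.91 for Agpat2, while 2 were higher. That scaling also moved the median of all genes to 1.18, a shift shared by every gene.

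Gpd1 lies on the same chromosome as Letmd1 (chr15:100469023-100479164, plus strand), 744017 bases upstream. Between them the GRCm38 annotation has 15 protein-coding genes, of which 9 were tested. Of these, 5 were lower and 1 higher, against 22.4% and 23.7% of all genes tested. Their median log2 fold change was -0.67, against 0.03 over all genes tested. Dgat1 (chr15:76502015-76511953) is on this chromosome too, farther from Letmd1. An effect of position was not tested. Gene bodies of Gpd1, Gpd2, Gpam, Agpat2, Agpat3 and Lpin2 also overlap other annotated genes, of which only Egfl7, 64 bases at Agpat2 on the other strand, has a row in the count tables. Whether counting used strand is not given in the sources used here, so reads from such partners cannot be told apart.

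The genes whose levels followed Gpd1 most closely over the 6 mice were Entpd5, Elof1 and Mrpl33, with Pearson's r of 0.9998, 0.9994 and 0.9993 on the log2 scale. The gap between the groups alone gives high values, as 222 of 8726 genes compared had r over 0.99. Their own log2 fold changes of -1.29, -0.88 and -0.51 were far smaller than that of Gpd1.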

How the data were processed

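RNA from the BAT of 3 wild-type and 3 Letmd1 KO mice was sequenced as QuantSeq 3′ libraries. The authors aligned reads with Bowtie2 to mm10, kept unique and multiple alignments, and counted them with bedtools, per the methods and processing notes. Versions, the gene annotation and the use of strand are not given in the sources used here. The deposited values are whole read counts per gene, not normalized.

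The 6 files were joined by symbol. Genes kept by edgeR's filter (10 counts) were tested with its quasi-likelihood test after TMM scaling and adjusted by Benjamini-Hochberg (R 4.3.3, edgeR 4.0.16, limma 3.58.1, DESeq2 1.42.0). Methods name quantile normalization, which was run as an alternative. No columns were left out, and 5588 of 23282 rows had no counts. Scripts were tested on simulated data. Replicates differed by more than counting noise (chi-square per degree of freedom 11.5 to 34.0), and nothing marks them as paired. The p-values set each group difference against the spread between mice within groups, estimated with information shared across genes. The floors cover counting error only.

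The 10 genes and all lists were chosen with earlier results of these data known. Named genes were the 10 members, Letmd1, up to 3 called genes each way per pathway list with the largest fold changes, and the 3 genes most correlated with the member that fell furthest (mean of at least 10 CPM). Marker lists were given as counts and sums.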

Additional observations from a re-analysis of the deposited data

How the results depend on the processing

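The 10 genes and the other named results were recomputed under 15 alternatives. Isoenzyme ratios were recomputed with other added counts and without each mouse. This gave 602 values, of which 546 were kept. A gene was kept with the same direction and side of the threshold, or when called in neither fit. Lpin2 was thus kept where its sign turned, as under quantile normalization (-0.14). Counts of genes were kept when close to the main count, and ratios when the shift was below the SD between mice. Scaling mattered most. Over all genes, the median log2 change was 0.03 with TMM, 0.45 with library size alone, -0.05 with quantile normalization and 1.18 after scaling to adipocyte markers, and the share of calls that were higher went from 51.5% to 81.4%, 46.9% and 96.9%. With library size alone 1346 genes were lower and 5885 higher, and of the other genes of supply, synthesis and phospholipids 8 were lower and 15 higher, against 18 and 6. After adipocyte scaling 10415 genes passed the threshold (325 lower, 10090 higher), with 5 of the 10 genes lower and 2 higher, and 3 of the other pathway genes lower and 26 higher. The sign turned there for Pck1 (0.18), Lpin1 (0.53), Agpat1 (0.24) and Agpat5 (0.60), and under quantile normalization for Pck1 (0.070). With the muscle level as a covariate, which uses up 1 degree of freedom, 3593 genes passed (1782 lower, 1811 higher), with 15 of the other pathway genes called and 10 lower. Leaving out each mouse in turn gave 11 to 18 lower genes among the other pathway genes, with 11 without wild-type mouse 2 or KO mouse 3. The replicate number as a block gave 5635 calls (2720 lower, 2915 higher), and 9 of the 10 genes stayed lower. The only named call lost with that block was Foxo1 (adjusted p = 0.0536). Deviations of same-numbered mice from their group means had correlations of 0.07, -0.11 and -0.09, and differently numbered mice reached 0.19. With 3 mice per group, such correlations cannot show whether the numbers pair mice. Causes of these shifts were not tested. With 3 mice per group, the interval of Lpin2 and the calls of Pck1, Gyk and Agpat5 mark what this depth and number can show.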

Other observations

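Of 12 transcription factors known to act on these genes 6 were lower (22.4% of all genes tested were), 1 was higher (23.7%) and 5 were not called, with a median log2 fold change of -0.50. Mlxipl, the carbohydrate response factor ChREBP, had 291, 318 and 409 CPM in wild-type mice and 69.5, 62.1 and 79.1 CPM in KO mice, a change of -2.27 ± 0.15 (SE, adjusted p = 1.9e-06). Foxo1, a factor held back by insulin, had 549, 456 and 199 CPM against 118, 118 and 137 CPM (-1.69 ± 0.38, adjusted p = 0.0149), a call lost without KO mouse 2 (adjusted p = 0.0757), with the replicate block (adjusted p = 0.0536) and with the muscle covariate (adjusted p = 0.051). Cebpa, a factor of adipocyte differentiation, changed by -1.43 ± 0.20 (SE, adjusted p = 0.00052), a call lost after adipocyte scaling (-0.33, adjusted p = 0.189). Atf4, the main factor of the amino acid and mitochondrial stress response, rose from 323, 228 and 164 CPM to 647, 560.3 and 745 CPM (1.45 ± 0.24, adjusted p = 0.0017). Pparg, named after its values were seen, had overlapping groups and a log2 fold change of -0.18 ± 0.18 (SE, adjusted p = 0.46).

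Within the wild-type group, Pck1, Gpam, Lpin2 and Dgat1 of the 10 genes were highest in mouse 1 and lowest in mouse 3. Gyk, Pck2, Gpat4 (Agpat6), Gpat3 (Agpat9), Agpat4, Foxo1, Atf4, Dio2 and Ppargc1a, among others, had this order too. The summed erythroid markers of these mice had the same order, at 25360, 19132 and 13667 CPM, whereas the KO mice had 18583, 13536 and 16334 CPM. Gpd1, Gpd2, Agpat2 and Lpin1 were lowest in mouse 1 and highest in mouse 3, and Agpat3 and Dgat2 had neither order. These orders were seen after the values were known, rest on 3 mice and were not tested.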
